A study of Homo sapiens with 3 samples.

Results

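The replication-dependent histone genes are the clustered genes whose mRNAs supply the histones H1, H2A, H2B, H3 and H4 that are packed onto new DNA during S phase. They were found by mapping the RefSeq accessions of the deposited tables to current gene symbols and keeping H1-1 to H1-6 and all numbered H2AC, H2BC, H3C and H4C symbols. This gave 69 of 26555 genes, with 6 for H1, 17 for H2A, 18 for H2B, 13 for H3 and 15 for H4. Symbols of 2 pseudogenes, H2AC2P and H2BC20P, were left out. RNA-seq libraries of MTAC-P, a lung cancer line that was derived from PC9 and resists EGFR tyrosine kinase inhibitors, came from cells with short hairpins against BCAT1 (2 libraries) and from cells with a control hairpin against luciferase (1 library). Per the labels' protocols, every culture was kept in DMEM plus 10% FBS, and Trizol was used to take total RNA. The series text speaks of triplicates, while 3 libraries in all were analysed here. BCAT1 encodes the cytosolic aminotransferase of branched-chain amino acids. Nothing in the labels tells if shBCAT1 1 and shBCAT1 2 differ in hairpin or in culture, so p-values measure no more than how far these libraries spread, and that spread may be technical.

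Replication-dependent histone mRNAs are the only animal mRNAs known to lack a poly(A) tail. They end in a short stem-loop that is bound by SLBP, the stem-loop binding protein, and is cut with the help of the U7 small nuclear RNP. The genes lie in clusters and are switched on together at the start of S phase through NPAT, and their mRNAs are degraded when DNA synthesis stops. Some of them also give longer, spliced or polyadenylated transcripts in cells that have left the cycle. Libraries made by poly(A) selection hold few of the stem-loop mRNAs. The selection step used here is not given in the sources used here.

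BCAT1 itself was listed at 1.05 FPKM (bounds 0.835 to 1.27) in the library labelled shBCAT1 1 and at 0.241 FPKM (0.158 to 0.325) in the library labelled shBCAT1 2, against 0.213 FPKM (0.129 to 0.297) in the control. FPKM counts fragments relative to the length of the transcript and the mapped fragments of its library. BCAT1 was thus higher than the control in the library labelled shBCAT1 1, which goes against its label, and was not detectably lower in the other. Every difference is therefore one between libraries as labelled. All FPKM summed to 44312 and 46145, against 53898 in the control. Keratin genes of epithelial cells were abundant, KRT8 at 256 and 410 FPKM against 295 FPKM in the control (KRT7, KRT18 and KRT19 lay between 87.7 and 320 FPKM), while the lung markers NKX2-1 and NAPSA were at or below 0.224 FPKM in each library. Of 12 markers of blood, stromal and endothelial cells, 6 were at 0 in every library. CD68 was at 3.51 and 3.6 FPKM against 3.42 FPKM, and CD3E, LYZ and COL1A1 stayed at or below 0.259 FPKM.

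The stem-loops are shown because they are the feature that sets these mRNAs apart and because they show which transcript end a deposited value covers. GENCODE 29 transcripts (GRCh38), which were available for 65 members, were searched along the transcript strand for GGNNNT, a loop of TNTN and ANNNCC in direct succession, with the 6 bases of both arms fully complementary. A stem-loop at the gene's own locus was found for 26 members, and 0.0668% of all 206694 GENCODE transcripts held one. Capitals mark the 16 bases of the stem-loop, and 5 bases stand on either side.
H2AC6: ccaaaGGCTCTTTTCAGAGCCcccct
H2BC4: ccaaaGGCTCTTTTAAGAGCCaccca
H2BC6: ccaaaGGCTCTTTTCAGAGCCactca
H3C14: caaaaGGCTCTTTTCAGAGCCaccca
H4C8: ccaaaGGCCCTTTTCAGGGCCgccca
H4C2: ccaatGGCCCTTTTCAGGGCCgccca
H4C16: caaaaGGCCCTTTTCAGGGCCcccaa

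The 5′ side of the stem read GGCTCT in each of the 20 H2A, H2B and H3 members found (4, 11 and 5 members) and GGCCCT in each of the 6 H4 members. The stem-loop of H2BC4 lies at chr6:26123472-26123487 on the minus strand and that of H4C8 at chr6:26285131-26285146 on the minus strand. On the plus strand lie those of H2AC6 (chr6:26124669-26124684) and H2BC6 (chr6:26184210-26184225), and on the minus strand those of H3C14 (chr1:149840692-149840707) and H4C2 (chr6:26026901-26026916). The stem-loop of H4C16, a lone H4 gene outside the clusters, lies at chr12:14770724-14770739 on the minus strand. For 25 members an entry of the deposited tables ended 4 to 51 bases past the stem-loop, with a median of 5 bases. The entries of these members thus cover the short mRNA that ends at the stem-loop. In H2BC21 the deposited entry ran on for 1728 bases past it. The search says only that the letters were not in the sequences at hand for the other members, many of which are coding sequences without untranslated ends.

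The histone mRNAs were read at low FPKM in all libraries, with 9.29 FPKM as the highest value of any member. Summed over the 69 members they came to 68.3 and 84.7 FPKM in the libraries labelled shBCAT1 1 and shBCAT1 2, against 85.2 FPKM in the control. That is 0.154% and 0.184% of all FPKM, against 0.158% in the control. A value above 0 was listed in at least 1 library for 60 members and in every library for 48, and 27 of the 60 stayed under 1 FPKM throughout. Of all 26555 genes, 16443 had a value above 0 and 3889 averaged 1 FPKM or more, beside 60 and 24 of the 69 members. Both shares were thus larger for the members than for all genes. The 9 members at 0 in every library were H1-1, the testis H1 gene H1-6, H2AC1, H2BC1, H2BC3, H2BC9, H3C7, H4C6 and H4C7. In bulk samples, fewer cells in S phase, less histone RNA per cell and loss of stem-loop mRNAs by poly(A) selection cannot be told apart.

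Few fragments stand behind each value. The files give no counts, but the width of the bounds, read as 2 standard deviations to each side, gives a counting error, and the square of value over error gives the equivalent number of fragments. Of 157 values above 0 of members with 1 entry, 125 came out whole within 0.05. The best-covered library held at most 3 equivalent fragments for 20 members, more than 3 and up to 10 for 29, and more than 10 for 11. The median over the 60 members was 5, and 1 fragment was worth a median of 0.251 FPKM in the control. The median counting error was 57.7% and 47.1% of a member's value in the libraries labelled shBCAT1 1 and shBCAT1 2 and 49.7% in the control, while over the 3889 genes averaging 1 FPKM or more it was 13.6%, 12.5% and 13.2%. These errors cover counting and the sharing of fragments between entries, not the spread between libraries.

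**Figure D1:**
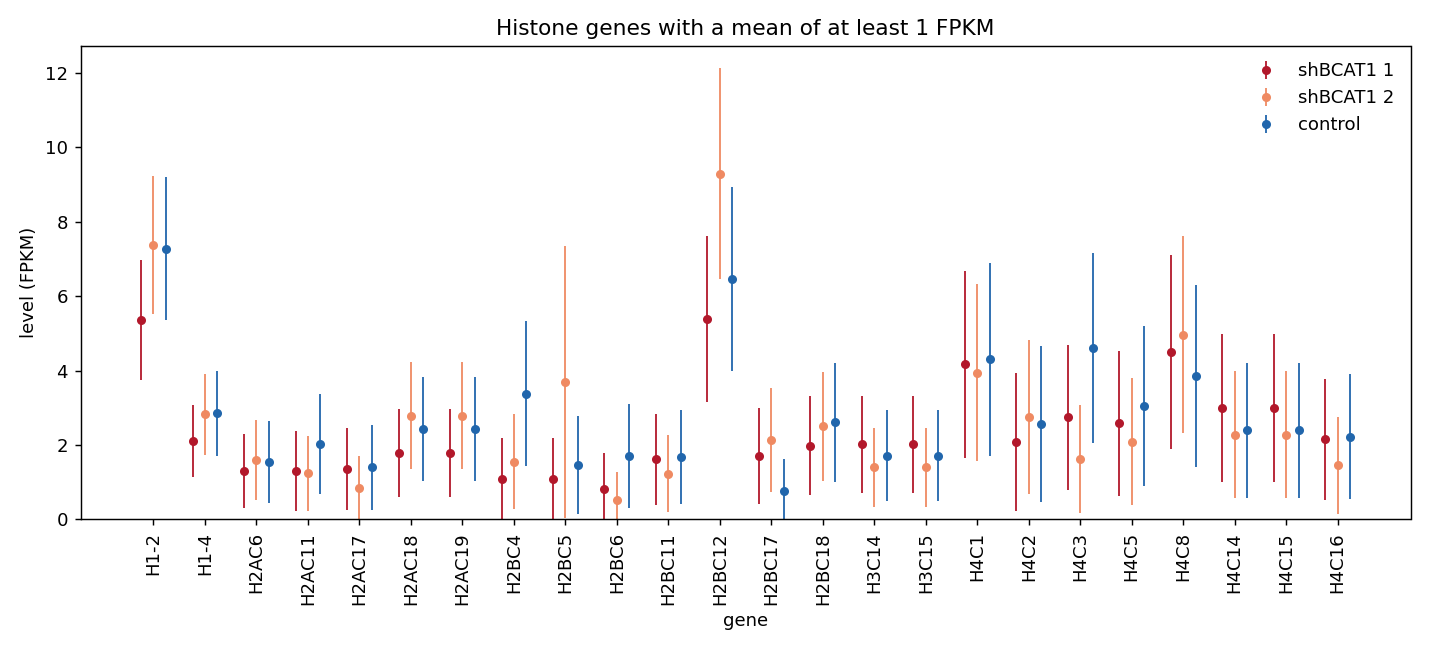
Level in FPKM of the 24 histone genes that averaged 1 FPKM or more, by library. Points are deposited values and lines run between the confidence bounds, except that H2BC12, H2BC5 and H2BC18 are sums of 2 deposited entries with combined errors; the gene-level bounds of each library labelled shBCAT1 overlap those of the control for all 24 genes.

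Of the linker histones, which bind where DNA enters and leaves the nucleosome, H1-2 (older symbol HIST1H1C, chr6:26055740-26056471) was the best covered member. It was listed at 5.36 FPKM from 44 fragments and 7.38 FPKM from 64 fragments in the libraries labelled shBCAT1 1 and shBCAT1 2, against 7.28 FPKM from 58 fragments in the control. The control lay between them. The log2(FPKM + 1) difference was -0.18 ± 0.26 (SE) at a limma adjusted p of 0.883 over the 3889 genes tested. H1-4 was at 2.1 and 2.83 FPKM, against 2.85 FPKM in the control, and the bounds of all libraries overlapped. H1-3 and H1-5 stayed below 1 FPKM in every library and rested on 3 to 7 fragments each.

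Core histone H2A, which pairs with H2B, was read from many genes at low level. The copies H2AC18 and H2AC19 on chromosome 1 had the same value in each library, 1.78 and 2.79 FPKM, against 2.42 FPKM in the control, so their fragments could not be told apart. H2AC11 was at 1.31 and 1.24 FPKM from 6 fragments each, against 2.02 FPKM from 9 fragments in the control. Both libraries lay below the control, and the bounds overlapped. By limma the difference was -0.41 ± 0.17 (SE) at an adjusted p of 0.798. H2AC6 was at 1.31 and 1.6 FPKM, against 1.55 FPKM, with the control between the others. H2AC17 was at 1.36 and 0.858 FPKM, against 1.4 FPKM. The other 11 members with a value rested on at most 8 fragments in any library. H2AC20, with values of 0.183 and 0.694 FPKM against 1.51 FPKM in the control, had a difference of -0.83 from 5.33 fragments at most. H2AC8 was at 0 and 0.844 FPKM, against 0.184 FPKM in the control. A value of 0 was given an error of 0, so the distance between its libraries in counting errors is not read.

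H2B held the highest single value of any member. H2BC12 (HIST1H2BK) was at 5.38 and 9.29 FPKM, against 6.46 FPKM in the control, with the control between the libraries labelled shBCAT1. These stood more than 2 counting errors apart, and the share of all genes so far apart was not computed. H2BC4 (HIST1H2BC, chr6:26123467-26123904) was at 1.1 FPKM from 4 fragments and 1.55 FPKM from 6 fragments in the libraries labelled shBCAT1 1 and shBCAT1 2, against 3.39 FPKM from 12 fragments in the control. Both values lay below the control, at -2.04 and -1.57 counting errors from it. The difference was -0.92 ± 0.22 (SE), with an unadjusted p of 0.0132 and an adjusted p of 0.798 by limma. H2BC6 (HIST1H2BE) was at 0.832 and 0.525 FPKM from 3 and 2 fragments, against 1.71 FPKM from 6 fragments in the control, a difference of -0.70 ± 0.20 (SE) with a limma adjusted p of 0.798. H2BC17 (HIST1H2BO, chr6:27893425-27893891) stood the other way, at 1.71 and 2.13 FPKM from 7 and 9.25 fragments, against 0.754 FPKM from 3 fragments in the control. Its difference was 0.73 ± 0.20 (SE), with an unadjusted p of 0.0203 and an adjusted p of 0.798 by limma. H2BC6 was above 1 FPKM in the control only, and H2BC17 in the libraries labelled shBCAT1 only. Each was tested through the side on which it is high, so neither its p nor its rank is read as a result. H2BC11 was at 1.62 and 1.22 FPKM, against 1.67 FPKM, and H2BC18 at 1.98 and 2.5 FPKM, against 2.61 FPKM. H2BC7, H2BC8, H2BC10, H2BC13, H2BC14, H2BC15 and H2BC26 rested on at most 4 fragments in any library. H2BC21, whose long transcript took 8 and 12 fragments against 14.5 in the control, was at 0.255 and 0.363 FPKM, against 0.477 FPKM.

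H3, which forms the central tetramer with H4, was the least abundant class. H3C14 and H3C15, again a pair with the same value in each library, were at 2.02 and 1.4 FPKM, against 1.71 FPKM in the control, which lay between them. Their difference was -0.01 ± 0.23 (SE) at a limma adjusted p of 0.996, and its sign changed with either scaling between libraries. The other 10 H3 genes with a value rested on at most 5 fragments, and H3C2, at 0.478 and 1.13 FPKM against 0.247 FPKM, was the only one of them to reach 1 FPKM.

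H4 was the most abundant class per gene, with a median over its 15 members of 2.08 and 1.46 FPKM in the libraries labelled shBCAT1 1 and shBCAT1 2, against 2.22 FPKM in the control. H4C8 (HIST1H4H) was at 4.5 and 4.97 FPKM from 12 and 14 fragments, against 3.87 FPKM from 10 fragments, a difference of 0.24 ± 0.20 (SE) with a limma adjusted p of 0.839. H4C1 was read from 11 fragments in every library, at 4.17 and 3.95 FPKM against 4.3 FPKM. H4C3 (HIST1H4C, chr6:26103948-26104337) was at 2.75 and 1.62 FPKM from 8 and 5 fragments, against 4.6 FPKM from 13 fragments in the control. Both libraries were below the control, at -1.16 and -2.03 counting errors from it, and the bounds overlapped. The difference was -0.84 ± 0.29 (SE), with an unadjusted p of 0.0446 and an adjusted p of 0.798 by limma. H4C5 was at 2.58 and 2.09 FPKM against 3.04 FPKM, H4C2 at 2.08 and 2.75 FPKM against 2.57 FPKM, and H4C16 at 2.15 and 1.46 FPKM against 2.22 FPKM. The third pair of copies, H4C14 and H4C15, was at 3 and 2.28 FPKM against 2.4 FPKM. The other 5 H4 genes with a value, H4C4, H4C9, H4C11, H4C12 and H4C13, rested on at most 3 fragments in any library.

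Set against the control, none of the histone genes tested passed the threshold. By limma on log2(FPKM + 1), 0 of the 24 members that averaged 1 FPKM or more had an adjusted p under 0.05, beside 0.36% of all 3889 genes tested. At an unadjusted p under 0.05 there were 4, H2BC4, H2BC6 and H4C3 lower and H2BC17 higher, which is 16.7% of 24, beside 5.61% of all genes (4.96% lower and 0.643% higher). The 24 passed a filter on level and do not stand for all members, and these 4 had 2 to 13 fragments in each library. Of them H2BC6, with a mean of 1.02 FPKM, was above 1 FPKM in the control only, and H2BC17 in the libraries labelled shBCAT1 only. Each passed the filter through the side on which it is high, so nothing is read from the 16.7%. Over the 60 members with a value, 26 were lower and 11 higher in both libraries labelled shBCAT1, which is 43.3% and 18.3%, beside 35.2% and 27.3% of the 16443 genes with a value. Equal fragments can count as lower, since these libraries had a depth of 1.03 and 1.09 relative to the control. H4C1, with 11 fragments in every library, and H2BC7, with 2, are among the 26. Over the 24 tested, 11 were lower and 2 higher, which is 45.8% and 8.33%, beside 43.7% and 25.6% of the 3889 genes tested. Among genes above that minimum, the share of lower members was near that of other genes and the share of higher members was smaller. The minimum sets a shared floor and not a like level, and H2BC6 and H2BC17 are among the 11 and the 2. Nothing is therefore read from these shares. The median log2(FPKM + 1) difference was -0.08 over the 60 members and 0.00 over the 16443 genes. Above the minimum it was -0.08 over the 24 members and -0.06 over the 3889 genes.

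Scaling between libraries moved both the members and the other genes. With median-of-ratios scaling 19 of the 60 members were lower and 15 higher (31.7% and 25%), beside 29.9% and 33.7% of genes with a value. Of the 24 tested, 7 were lower and 2 higher, beside 36.8% and 35.8% of genes tested. With quantile normalization 21 of the 60 were lower and 15 higher (35% and 25%), beside 31.6% and 31.4%, and of the 24 tested 8 were lower and 2 higher, beside 32.1% and 38.1%. The share of lower members among the 60 was thus close to that of genes with a value under both scalings. The share of higher members stayed below that of genes with a value, and among the 24 below that of genes tested. Nothing is read from these shares either.

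Taken singly, the libraries differed for members and for other genes alike. In the library labelled shBCAT1 1, 42 of the 60 members were lower than the control and 17 higher (70% and 28.3%), beside 56.5% and 38.9% of genes with a value, and of the 24 tested 18 were lower and 6 higher, beside 68.7% and 31.1%. In the library labelled shBCAT1 2, 31 of the 60 were lower and 28 higher (51.7% and 46.7%), beside 43.5% and 52.8%, and of the 24 tested 15 were lower and 9 higher, beside 49.0% and 50.8%. Members with equal fragments in a library and in the control, such as H4C1, count as lower here too.

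More than 2 counting errors below the control in the library labelled shBCAT1 1 stood 1 member, H2BC4 (1.67%, beside 5.05% of genes with a value), and in the library labelled shBCAT1 2 another, H4C3 (1.67%, beside 4.26%). Above the control by as much there were 0 members in either, beside 1.89% and 7.24% of genes. In both libraries at once there were 0 members lower and 0 higher, beside 2.07% and 1.13% of genes, and likewise 0 and 0 of the 24 tested, beside 7.53% and 2.91%. With so few fragments a member has to move by a large factor to pass this mark, so a smaller difference was not detectable at this depth.

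**Figure D2:**
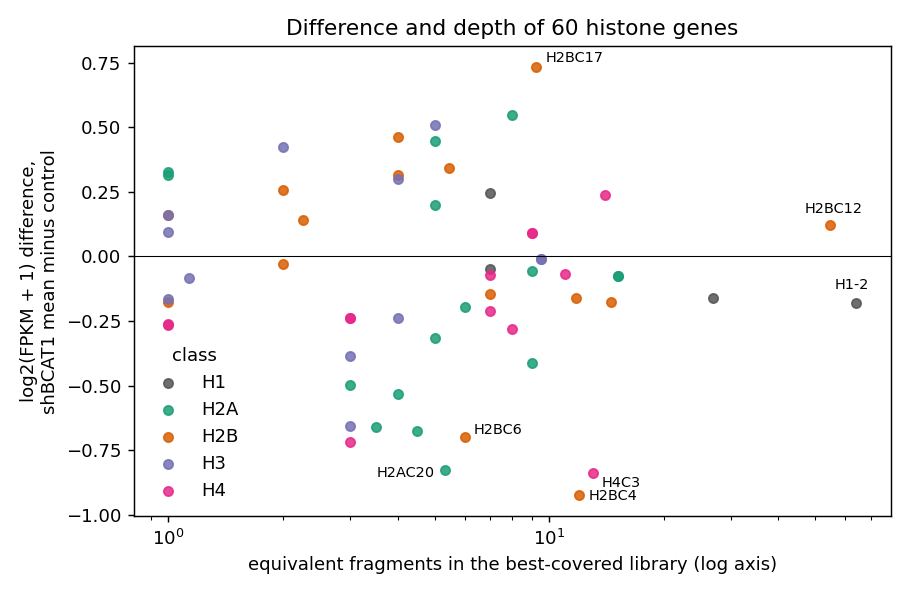
Mean log2(FPKM + 1) difference of the libraries labelled shBCAT1 from the control, against the equivalent fragments of the best-covered library (log axis), for the 60 histone genes with a value; colours are histone classes. The differences beyond 0.6 in size belong to genes with at most 13 fragments, and H1-2 and H2BC12, with more than 50 fragments, lie at -0.18 and 0.12.

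Summed over genes, the counting error is smaller beside the level. The sum of all members was 68.3 ± 4.26 FPKM (counting SD) in the library labelled shBCAT1 1 and 84.7 ± 4.79 FPKM in the library labelled shBCAT1 2, against 85.2 ± 4.82 FPKM in the control. The first stood at 0.802 of the control, a distance of -2.62 counting errors, and the second at 0.994 of it, a distance of -0.0754. With median-of-ratios scaling between libraries these ratios were 0.897 and 0.987, at -1.30 and -0.167 counting errors. The sum in the library labelled shBCAT1 1 was thus more than 2 counting errors below the control as deposited and within 2 after scaling. The mean of both was 76.5 ± 11.6 FPKM (SD, n = 2), as deposited. The library lower in histone FPKM is also the one in which all genes tested had a median log2(FPKM + 1) difference of -0.12, against 0.01 in the other. All FPKM together stood at 0.822 of the control in the library labelled shBCAT1 1 as deposited. The total of the other stood at 0.856, beside its histone sum at 0.994. In the library labelled shBCAT1 1, sums of replication-independent histones, chaperones, S phase genes and epithelial markers, listed elsewhere in this text, stood at 0.825, 0.809, 0.872 and 0.839 of the control. In the other they stood at 0.947, 1.08, 1.05 and 1.15. Sums of the genes that make and end histone mRNA and of the markers of other cell types stood at 1.02 and 1.05 in the library labelled shBCAT1 1. In the other they also stood at 1.02 and 1.05. The part of such shifts in the histone sum was not tested, so its 0.802 is not read as particular to histones.

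By class, H2A summed to 11.1 and 16.5 FPKM in the libraries labelled shBCAT1 1 and shBCAT1 2, against 17.2 FPKM in the control. They stood at -2.43 and -0.242 counting errors from it as deposited, and at -1.83 and -0.288 after scaling. H2B summed to 16.4 and 25.1 FPKM, against 20.5 FPKM, and so lay on either side of the control. H4 summed to 25.8 and 24.5 FPKM, against 29.6 FPKM, at -0.825 and -1.13 counting errors from it. H1 summed to 8.58 and 11.4 FPKM, against 11.05 FPKM, and H3 to 6.44 and 7.11 FPKM, against 6.88 FPKM. After scaling, the H3 ratio in the library labelled shBCAT1 1 moved to 1.05 where it had been 0.937, while the other class ratios kept their side of 1. The H2A and H4 sums were the ones below the control in both libraries, before and after scaling.

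**Figure D3:**
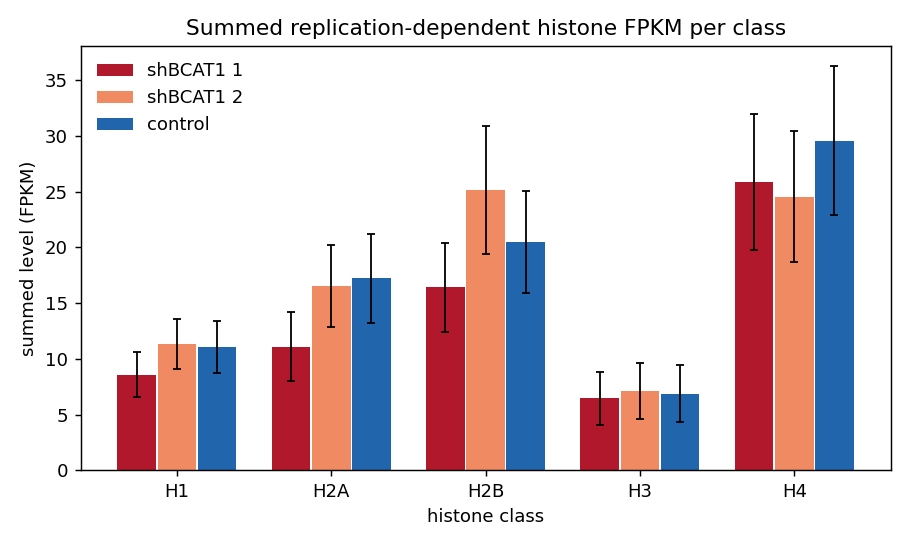
Summed FPKM of the replication-dependent histone genes per class and library; bars start at 0 and lines span 2 counting SDs to each side. The bars of the libraries labelled shBCAT1 1 and 2 differ most for H2B, at 16.4 and 25.1 FPKM, with the control at 20.5 FPKM.

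H2BC12 is listed in the tables with a short transcript (chr6:27146361-27146858) and with a longer, spliced one (chr6:27138293-27146858). The spliced transcript was at 1.96 FPKM (bounds 0.963 to 2.95) in the library labelled shBCAT1 1 and 4.7 FPKM (3.21 to 6.18) in the library labelled shBCAT1 2, against 4.73 FPKM (3.24 to 6.23) in the control. The first lay apart from the control and the second did not differ from it by more than its bounds. The short transcript was at 3.43 and 4.6 FPKM, against 1.73 FPKM (bounds up to 3.7), with overlapping bounds. With transcripts kept apart, the difference of the spliced form was -0.48 ± 0.51 (SE) and that of the short form 0.87 ± 0.25 (SE), with limma adjusted p of 0.8496 and 0.718. Of 63 member entries with a value, this spliced form was the only one with bounds apart from the control in any library (1.59%, beside 5.01% of all entries). Bounds apart were found for 0 member entries that were higher in that library, lower in the library labelled shBCAT1 2 or higher in it, beside 3.75%, 4.69% and 5.76% of all entries. The loci overlap, so fragments can be assigned to either form, and the spliced locus also spans H4C9.

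H2BC5 likewise has a short form that ends 5 bases past its stem-loop and a spliced form. The short form was at 0.475 and 3.35 FPKM, against 1.12 FPKM in the control. The spliced form was at 0.624 and 0.339 FPKM, against 0.347 FPKM. The bounds of the short form in the library labelled shBCAT1 2 ran from 0.0688 to 6.62 FPKM, so its height there is poorly known. The spliced form of H2BC18 was at or near 0 in every library, and its short form held the gene's value.

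Many H2A and H2B genes stand back to back and share the stretch between their start sites as a promoter. Of the members, 12 such pairs had start sites 224 to 347 bases apart on opposite strands. H2BC4 and H2BC17 are both in such pairs, and their promoter windows (RefSeq, GRCh38.p14, 250 bases before to 50 after the start) are shown as examples. They were picked by the size of their differences. H2BC17 was tested only through the libraries in which it is high, so the pick is not read as a result. Capitals mark matches on either strand to 3 motifs. The octamer, which OCT1 binds at H2B promoters, was searched as ATTTGCAT. The TATA box was searched with the letters TATAAA. The third motif was the CCAAT box, by the letters in its name.
H2BC4: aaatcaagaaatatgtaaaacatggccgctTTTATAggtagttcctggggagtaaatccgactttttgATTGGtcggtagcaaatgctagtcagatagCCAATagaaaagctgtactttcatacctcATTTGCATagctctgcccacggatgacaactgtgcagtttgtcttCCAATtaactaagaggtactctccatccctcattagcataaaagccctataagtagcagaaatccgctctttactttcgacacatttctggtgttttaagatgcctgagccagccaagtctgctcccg
H2BC17: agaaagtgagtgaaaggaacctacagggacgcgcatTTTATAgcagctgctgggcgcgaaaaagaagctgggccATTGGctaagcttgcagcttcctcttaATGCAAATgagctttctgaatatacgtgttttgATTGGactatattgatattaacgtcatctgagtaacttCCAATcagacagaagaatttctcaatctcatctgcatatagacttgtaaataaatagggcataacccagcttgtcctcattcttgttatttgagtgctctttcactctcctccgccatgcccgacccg

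The H2BC4 window is chr6:26123877-26124176 on the minus strand and reaches into H2AC6, which starts 241 bases away. The H2BC17 window is chr6:27893175-27893474 on the plus strand and reaches into H2AC17, 240 bases away. Each holds 1 octamer, 1 TATAAA match and 3 CCAAT matches. The TATAAA match of each is on the opposite strand, near the window end that reaches into the partner gene. It is not read as a TATA box of the H2B gene. In the H2BC17 window the octamer is on the opposite strand too, and the H2AC17 window holds the same match as ATTTGCAT. That match is not read as an octamer of H2BC17. Of 68 member promoter windows, 27 held the octamer (39.7%, beside 1.77% of 35116 windows of all genes), 45 a TATAAA match (66.2%, beside 11.5%) and 58 a CCAAT match (85.3%, beside 34.6%). The octamer was in 15 of 20 H2B windows (75%), 11 of 16 H2A windows, 1 of 13 H3 windows and in 0 of the H1 and H4 windows. Genes such as H2BC12 have more than 1 window, and windows of back-to-back partners overlap, so the same match can count more than once. A match describes letters and is no measure of binding.

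The pairs were sorted by the side of the control on which their partners lay in both libraries. H2AC6, the partner of H2BC4, was at 1.31 and 1.6 FPKM, against 1.55 FPKM in the control, while H2BC4 was at 1.1 and 1.55 FPKM, against 3.39 FPKM. H2AC17 was at 1.36 and 0.858 FPKM, against 1.4 FPKM, while its partner H2BC17 was at 1.71 and 2.13 FPKM, against 0.754 FPKM. Of the 12 pairs, 3 had both partners lower in both libraries labelled shBCAT1, 0 had both higher, and 1, H2AC17 with H2BC17, had partners on opposite sides. In the pair H2BC11 and H2AC11, both partners were below the control, H2AC11 at 1.31 and 1.24 FPKM against 2.02 FPKM. The other pairs with both partners lower were H2BC21 with H2AC20 and H2AC25 with H2BC26. H2BC26 rested on at most 1 fragment in any library. No such count was made for pairs of other genes, so nothing is read from the counts of pairs. The testis pair H2AC1 and H2BC1 was at 0 throughout.

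**Figure D4:**
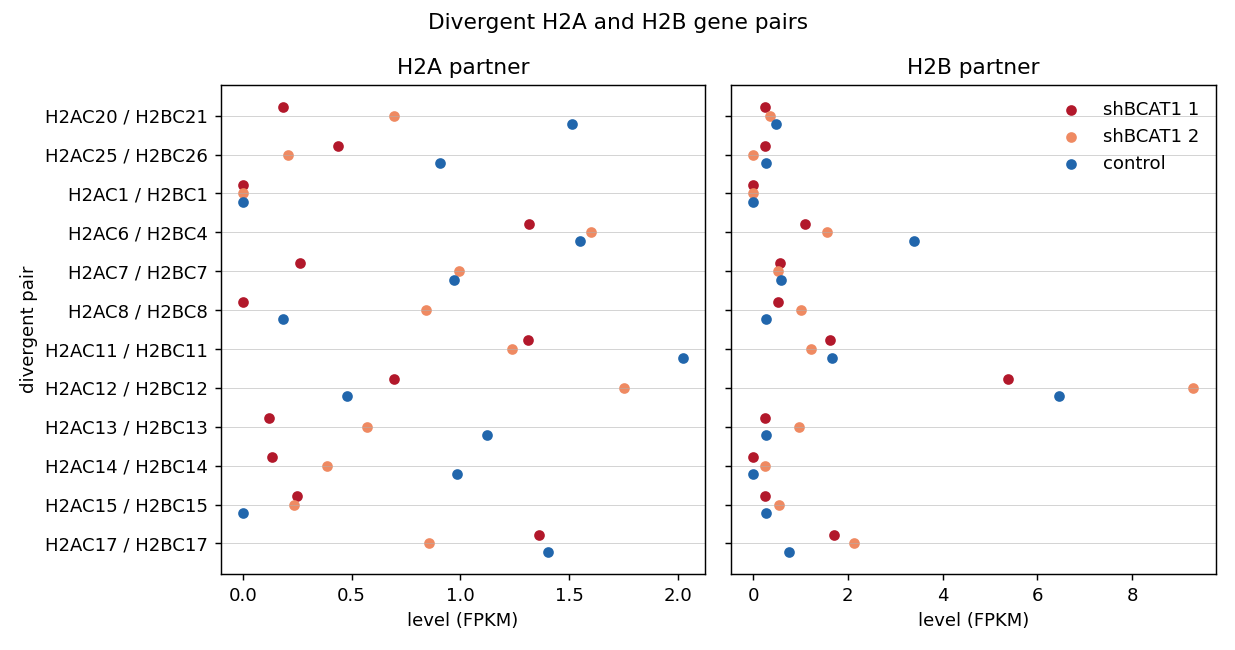
Level in FPKM of the H2A partner (left) and the H2B partner (right) of 12 divergent gene pairs; points are the libraries labelled shBCAT1 1 and 2 and the control. The axes of the panels differ in range; H2BC12 reaches 9.29 FPKM, and the control is the highest point for H2AC11 and H2BC4 and the lowest for H2BC17.

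Replication-independent histone genes mostly make polyadenylated mRNA through the cell cycle. Which transcript ends the values of the listed genes cover, H2AX among them, was not read. In every library H2AZ1 and H1-10 were at a higher FPKM than any single replication-dependent gene. H2AZ1, the H2A variant of promoters, was at 13.3 and 12.8 FPKM, against 15.9 FPKM in the control, and all 17 H2A members together summed to 11.1 and 16.5 FPKM, against 17.2 FPKM. H1-10, a linker histone, was at 10.0 and 14.5 FPKM, against 15.4 FPKM, above the sum of the 6 clustered H1 genes in every library (8.58 and 11.4 FPKM, against 11.05 FPKM). H3-3B, which makes the H3.3 variant, was at 3.3 and 3.73 FPKM, against 4 FPKM, below the H3 sum in every library. H2AX, the H2A variant that is phosphorylated at DNA breaks, was at 7.47 and 8.21 FPKM, against 7.32 FPKM, and MACROH2A1 at 4.09 and 5.12 FPKM, against 4.65 FPKM. Of 8 tested genes of that list, 0 passed by limma, and 0 at an unadjusted p under 0.05, with 5 lower and 1 higher in both libraries, beside 43.7% and 25.6% of all genes tested. Their median difference was -0.18 on the log2(FPKM + 1) scale, and that of all genes tested was -0.06. H3-3A was listed near 0 in all libraries, with counting errors of 0.0751 and 0.071 FPKM, against 0.0774 FPKM in the control. These errors far exceed its values, so no level of H3.3 as a whole is read here.

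Of the genes that make and end histone mRNA, SLBP and NPAT were also low. SLBP was at 0.699 FPKM (bounds 0.386 to 1.01) and 1.24 FPKM (0.837 to 1.65), against 0.829 FPKM (0.429 to 1.23) in the control. NPAT, the activator of the histone clusters, was at 0.0113 and 0.0745 FPKM, against 0.0232 FPKM. SRRT, which links capped RNA to 3′ processing, was at 4.58 and 5.46 FPKM, against 4.22 FPKM, SYMPK, a scaffold of the cleavage complex, at 3.3 and 2.33 FPKM, against 3.1 FPKM, and UPF1, a helicase of histone mRNA decay, at 2.16 and 2.72 FPKM, against 2.02 FPKM. LSM10, a subunit of the U7 ring, was at 1.6 and 1.43 FPKM, against 1.65 FPKM. Of 19 genes 6 were tested, 0 passed by limma and 0 had an unadjusted p under 0.05, with 2 lower and 2 higher in both libraries, beside 43.7% and 25.6% of all genes tested, and a median difference of 0.05.

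Chaperones that carry histones to DNA gave 0 calls by limma among 14 tested of 18 and 0 at an unadjusted p under 0.05, with 3 lower and 3 higher in both, beside the same 43.7% and 25.6%, and a median of 0.03. NAP1L1, a carrier of H2A and H2B, was at 4.22 and 3.85 FPKM, against 6.08 FPKM, and NPM1 at 44.0 and 61.1 FPKM, against 58.6 FPKM. SET was at 11.2 and 16.4 FPKM against 13.5 FPKM, and SSRP1, a FACT subunit, at 7.55 and 8.61 FPKM against 7.42 FPKM. Genes of S phase and DNA replication, the phase in which histone mRNA is made, gave 0 calls by limma among 17 tested of 30 and 0 at an unadjusted p under 0.05, with 7 lower and 8 higher in both libraries, again beside 43.7% and 25.6% of genes tested, and a median difference of 0.09. PCNA, the replication clamp, was at 3.87 and 5.85 FPKM against 5.78 FPKM, and TK1, thymidine kinase, at 7.6 and 9.2 FPKM against 9.65 FPKM. MCM7, a helicase subunit, was at 6.38 and 7.08 FPKM against 7.22 FPKM, and CDT1, which loads that helicase, at 2.74 and 3.25 FPKM against 2.35 FPKM.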

How the data were processed

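The submitters' processing notes name Trim Galore, TopHat, Cufflinks and hg38, with no role or order. No source used here gives versions, annotation, strand or poly(A) selection. The authors deposited FPKM with confidence bounds per RefSeq transcript and locus, 1 table of 56882 entries per library. Accessions were named from a RefSeq table on GRCh38.p14 (49281 of 50337) and GENCODE release 29 (645), and FPKM was summed per symbol. Bounds were read as 2 SDs. Genes with a status other than OK (341) were left out of the fit. The 3889 genes averaging 1 FPKM or more entered a limma 3.58.1 fit (R 4.3.3) of log2(FPKM + 1) with an intensity trend, Benjamini-Hochberg adjustment and two-sided p; fold changes of low genes are understated on this scale. The single control is assumed to vary like the libraries labelled shBCAT1 (1 residual and 2.99 prior degrees of freedom). The fit was checked on simulated data. Read totals are unknown; depth relative to the control, from bounds, was 1.03 and 1.09. The members and lists were chosen with earlier results of these data known. Named were members with a value, BCAT1, SLBP, NPAT and the 4 highest genes of each list by mean FPKM; NKX2-1, NAPSA, H3-3A and H3-3B were added after their values were seen. Coordinates are on hg38, with start counted from 1. Alternatives covered pseudocount, filter, scaling, entries and libraries left out. Python 3.11.15, pandas 2.3.3, numpy 2.4.6 and matplotlib 3.10.9 were used.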

Additional observations from a re-analysis of the deposited data

How the results depend on the processing

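No paired analysis was possible because the control has 1 library and the groups share fewer than 2 replicate numbers. The 14 genes called by limma across all genes, of which 0 are histone members, became 0 with no filter on level, 0 with transcript entries kept apart and 8 at a minimum mean of 5 FPKM; the cause was not tested. At that minimum 2 members are left, H1-2 and H2BC12, and the counts lower and higher in both libraries labelled shBCAT1 were 0 and 0. In a single library labelled shBCAT1, 31 to 42 members were lower and 17 to 28 higher, beside 26 and 11 in both at once. The 42 and 17 come from the library labelled shBCAT1 1, beside 56.5% and 38.9% of genes with a value, and the 31 and 28 from the other, beside 43.5% and 52.8%. With the library labelled shBCAT1 1 alone the median difference was -0.16 and with the other alone -0.02. The median kept its sign and the summed ratio stayed under 1 in all alternatives run. The differences of H3C14 and H3C15 changed sign with median-of-ratios scaling (0.0424) and quantile normalization (0.0214), and that of H4C1 with quantile normalization (0.0377); the cause was not tested. That of H2BC12 was -0.483 when its spliced entry was read alone. With 1 library labelled shBCAT1 left out, 11 of the 24 tested members took the other sign: H1-2, H2AC6, H2AC18, H2AC19, H4C2, H4C14 and H4C15 with the library labelled shBCAT1 2 alone, and H2BC5, H2BC12, H3C14 and H3C15 with the library labelled shBCAT1 1 alone. In the alternatives that allow a limma test, no member tested passed, with a smallest adjusted p of 0.695; the minimum of 5 FPKM tested 2 members, and 1 library against 1 allows no test. Keeping 1 of each pair of identical copies, an alternative chosen after seeing the data, gave a summed ratio of 0.888 beside 0.898. Depth limits these results: most members rest on 10 fragments or fewer in every library.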
